A study of Mus musculus with 4 samples.

Results

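The genes described here are 50 mouse genes that license replication origins and copy DNA: the origin recognition complex and its loading factors, the replicative helicase, the initiating kinases and cyclins, the polymerases with their clamp, the single-strand binding protein, the enzymes that join lagging-strand fragments or supply nucleotides, and a histone loading complex. They were chosen by name, and each was read by its brightest probe set with a single gene symbol, by the mean over the 4 arrays. Of the 50 genes, 49 had such a probe set and all of those passed the filter on low signals, among 12740 genes tested. Chaf1a was not analysed here.

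Signals came from 4 Affymetrix mouse expression arrays of cells sorted for GFP from E10.5 neural tubes, dissected between the limbs of embryos of a mixed B6SJLF1 and ICR background. The Atoh1-GFP group (2 arrays) came from Atoh1BAC-GFP embryos, in which a modified bacterial artificial chromosome puts GFP in the Atoh1 lineage that forms dorsal interneuron 1 (dI1). The dNeurog1-GFP group (2 arrays) came from embryos in which an enhancer of Neurog1 puts GFP in the dorsal cells that form dorsal interneuron 2 (dI2). No mutation or treatment was given for either line, and the 2 arrays of a group are labelled biological replicates. The sources used here do not state that the arrays held the GFP-positive cells, how many embryos each pooled, or which of 2 cell sorters each used. GFP can outlast the activity of its promoter, so either sort can hold dividing progenitors as well as newborn neurons, and fewer cells of a type and less RNA per cell cannot be told apart in such samples.

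DNA replication is prepared in G1 phase, when the origin recognition complex, Cdc6 and Cdt1 load the ring of Mcm2 to Mcm7 onto DNA. At the start of S phase, cyclin E with its kinase and Cdc7 with Dbf4 fire the origins, and Cdc45 and the GINS complex join the ring to form the active helicase. Many of these genes are transcribed under E2F factors, which the retinoblastoma family holds back once a cell leaves the cycle. In the dorsal neural tube, progenitors divide beside the ventricle and the neurons they form leave the cycle and settle laterally.

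Promoters are shown because these genes lay lower together in 1 population and because E2F factors are known to bind several of them. RefSeq promoter sequences (GRCm38.p6, 250 bases before to 50 bases after the start site) were found for 41 of the 50 genes. Both strands were searched for 4 forms of the E2F motif: TTTCCCGC, TTTCGCGC, TTTGCCGC and TTTGGCGC. At least 1 promoter held a form of the motif in 14 of the 41 genes (34.1%), against 575 of 17492 protein-coding genes (3.29%). Counted by promoter, 28.0% of 50 held it, against 2.85% of all 21263 protein-coding promoters of this length. The promoters of these genes had a median GC content of 61.8%, against 56.3% over all promoters. CCAAT, the box bound by NF-Y, stood in 58.5% of the 41 genes and 42.3% of all, and TTTGAA, the element of many late cell cycle genes, in 17.1% and 18.5%. Of the licensing and helicase genes among the 14, Orc3, Gins3 and Mcm7 are not printed. Their log2 differences, defined below, were -0.27, -0.73 and -0.23, smaller than those of the genes printed. The sequences of the other 6 follow, chosen with their differences known, 5′ to 3′ along the gene, with the E2F matches in capitals.
Cdc6 (chr11:98907901-98908200, plus strand): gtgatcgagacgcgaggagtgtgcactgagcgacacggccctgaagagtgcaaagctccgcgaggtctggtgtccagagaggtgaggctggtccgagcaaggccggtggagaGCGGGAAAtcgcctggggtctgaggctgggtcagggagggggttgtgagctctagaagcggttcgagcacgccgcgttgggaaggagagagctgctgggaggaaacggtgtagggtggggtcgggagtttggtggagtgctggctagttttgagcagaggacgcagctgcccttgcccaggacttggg
Cdt1 (chr8:122567765-122568064, plus strand): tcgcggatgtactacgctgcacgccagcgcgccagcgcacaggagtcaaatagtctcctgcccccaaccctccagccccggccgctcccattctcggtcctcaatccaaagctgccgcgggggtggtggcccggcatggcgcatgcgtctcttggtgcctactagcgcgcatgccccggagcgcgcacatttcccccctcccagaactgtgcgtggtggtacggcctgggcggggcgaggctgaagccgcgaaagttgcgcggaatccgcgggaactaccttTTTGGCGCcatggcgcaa
Orc1 (chr4:108579204-108579503, plus strand): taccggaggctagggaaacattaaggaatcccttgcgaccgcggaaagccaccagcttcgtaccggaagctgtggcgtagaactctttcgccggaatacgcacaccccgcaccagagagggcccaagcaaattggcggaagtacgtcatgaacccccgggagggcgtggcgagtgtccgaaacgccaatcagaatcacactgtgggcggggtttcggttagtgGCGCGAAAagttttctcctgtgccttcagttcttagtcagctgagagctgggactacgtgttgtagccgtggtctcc
Mcm3 (chr1:20820263-20820562, minus strand): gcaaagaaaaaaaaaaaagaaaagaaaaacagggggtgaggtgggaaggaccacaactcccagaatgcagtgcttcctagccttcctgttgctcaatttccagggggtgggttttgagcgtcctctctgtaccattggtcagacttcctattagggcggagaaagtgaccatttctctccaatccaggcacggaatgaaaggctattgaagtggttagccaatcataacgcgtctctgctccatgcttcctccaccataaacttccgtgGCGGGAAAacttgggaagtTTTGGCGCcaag
Mcm5 (chr8:75109259-75109558, plus strand): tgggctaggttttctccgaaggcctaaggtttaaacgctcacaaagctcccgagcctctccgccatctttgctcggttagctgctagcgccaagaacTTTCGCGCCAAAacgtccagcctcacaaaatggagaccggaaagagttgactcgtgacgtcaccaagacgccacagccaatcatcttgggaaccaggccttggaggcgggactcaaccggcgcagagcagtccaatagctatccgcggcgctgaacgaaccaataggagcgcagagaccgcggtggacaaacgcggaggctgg
Mcm6 (chr1:128359656-128359955, minus strand): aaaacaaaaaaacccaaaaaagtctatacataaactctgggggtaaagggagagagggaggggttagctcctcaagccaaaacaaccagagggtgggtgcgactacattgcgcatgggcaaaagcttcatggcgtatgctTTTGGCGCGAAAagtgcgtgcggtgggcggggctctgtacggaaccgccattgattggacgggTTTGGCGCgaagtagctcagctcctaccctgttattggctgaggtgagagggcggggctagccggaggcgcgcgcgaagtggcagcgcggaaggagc
In Mcm5 a match on each strand overlapped, and in Mcm6 2 of its 3 matches overlapped. The match began 138 bases before the start site in Cdc6, 27 before it in Orc1 and at base 32 after it in Cdt1. A match to these letters is a description and does not show that a factor bound there.

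On the arrays, the replication genes were lower in Atoh1-GFP than in dNeurog1-GFP cells as a group. The difference is that of mean log2(signal + 32), Atoh1-GFP minus dNeurog1-GFP, and its median was -0.74 over the 49 genes and 0.01 over all genes tested. Taken between the replicate 1 arrays alone it was -0.71, and between the replicate 2 arrays alone -0.78. Of the 49 genes, 47 were lower within both replicate numbers (33.7% of all genes were), and 45 were lower with no overlap of the arrays (18.8% of all genes). In 10 of them the difference was at least 2-fold within both replicate numbers, as in 1.15% of all genes: Cdc6, Cdt1, Gmnn, Mcm3, Mcm4, Mcm10, Gins2, Ccne2, Rpa2 and Tk1.

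**Figure D1:**
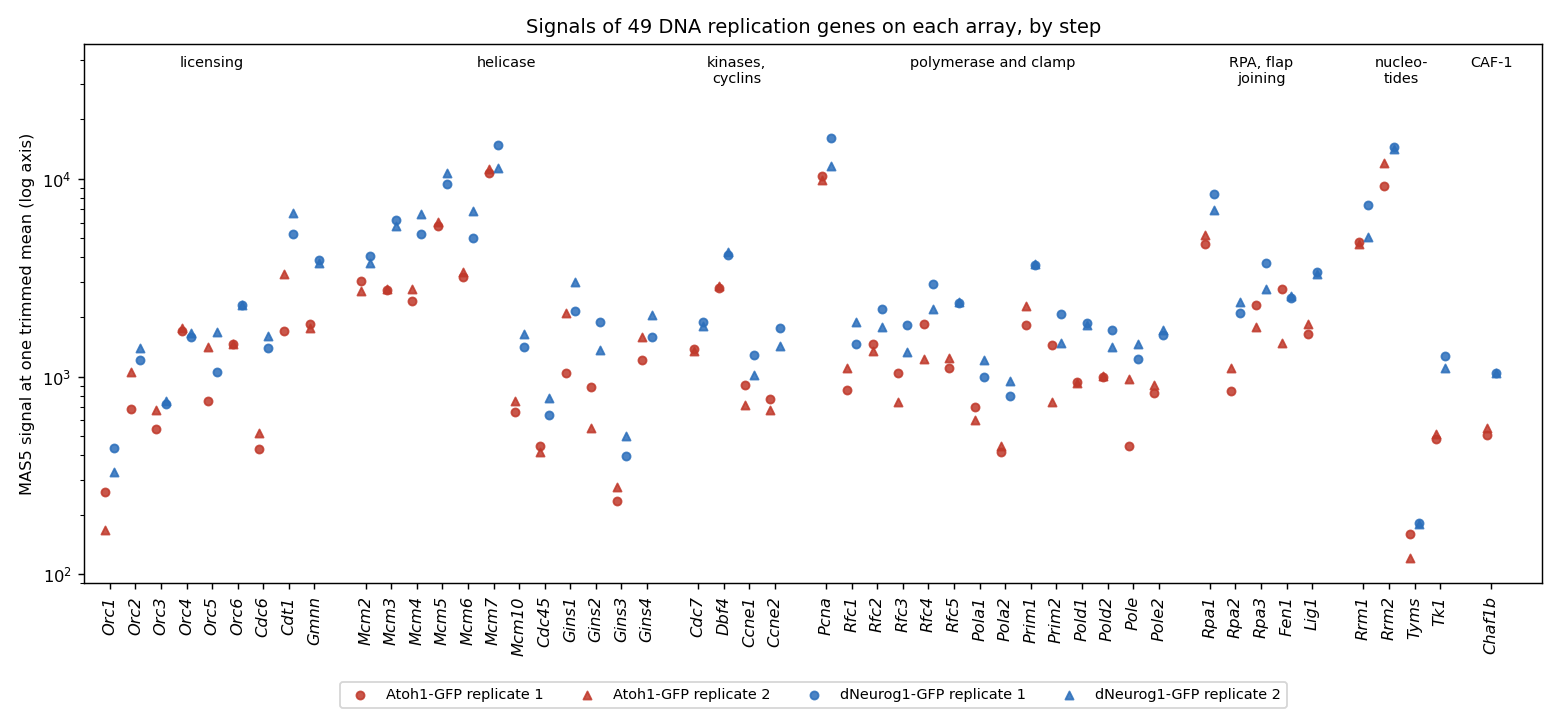
MAS5 signals of 49 replication genes on each array, scaled to the same trimmed mean and drawn on a log axis, with red Atoh1-GFP points left of blue dNeurog1-GFP points, circles for replicate 1 and triangles for replicate 2. In 45 genes both red points lie below both blue points; different genes are read by different probes, so their heights are not compared with each other.

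The test across all genes (limma with Benjamini-Hochberg adjustment) called 0 replication genes without the replicate number as a block, where 0.0942% of all genes were called lower and 0.126% higher in Atoh1-GFP cells. At an unadjusted p under 0.05 that model counted 32 replication genes, all lower, against 5.09% of all genes lower. Its smallest adjusted p among them was 0.075, for Cdc6. With the replicate number as a block it called 27, all lower in Atoh1-GFP cells, where 3.73% of all genes were called lower and 2.78% higher. The deposited trimmed means were 250 on both replicate 1 arrays and 500 on both replicate 2 arrays. Scaling to 500 removed that difference before either model, so it is no reason for the block. The deposited medians did not follow it, at 69.1 (Atoh1-GFP) and 57.4 (dNeurog1-GFP) for replicate 1 and 76.0 and 75.4 for replicate 2. The signals thus differed by replicate number in more than scale. The block is shown as an alternative, and the labels state no pairing. The log2 difference is the same in both models. Its standard error among the 49 genes ran from 0.18 to 0.37 without the block and from 0.11 to 0.24 with it. Adjusted p-values below, and the words passed and missed the threshold, are with the block unless stated. Without it 0 replication genes passed, and with it 3.73% of all genes passed as lower. With an array left out, the median difference of the replication genes was -0.73 without Atoh1-GFP replicate 1 and -0.78 without Atoh1-GFP replicate 2. It was -0.81 without dNeurog1-GFP replicate 1 and -0.76 without dNeurog1-GFP replicate 2. Each of these fits takes its spread from the other population's 2 arrays and assumes that the lone array varies like them. Their counts of calls, given at the end, are therefore no sign of stability.

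**Figure D2:**
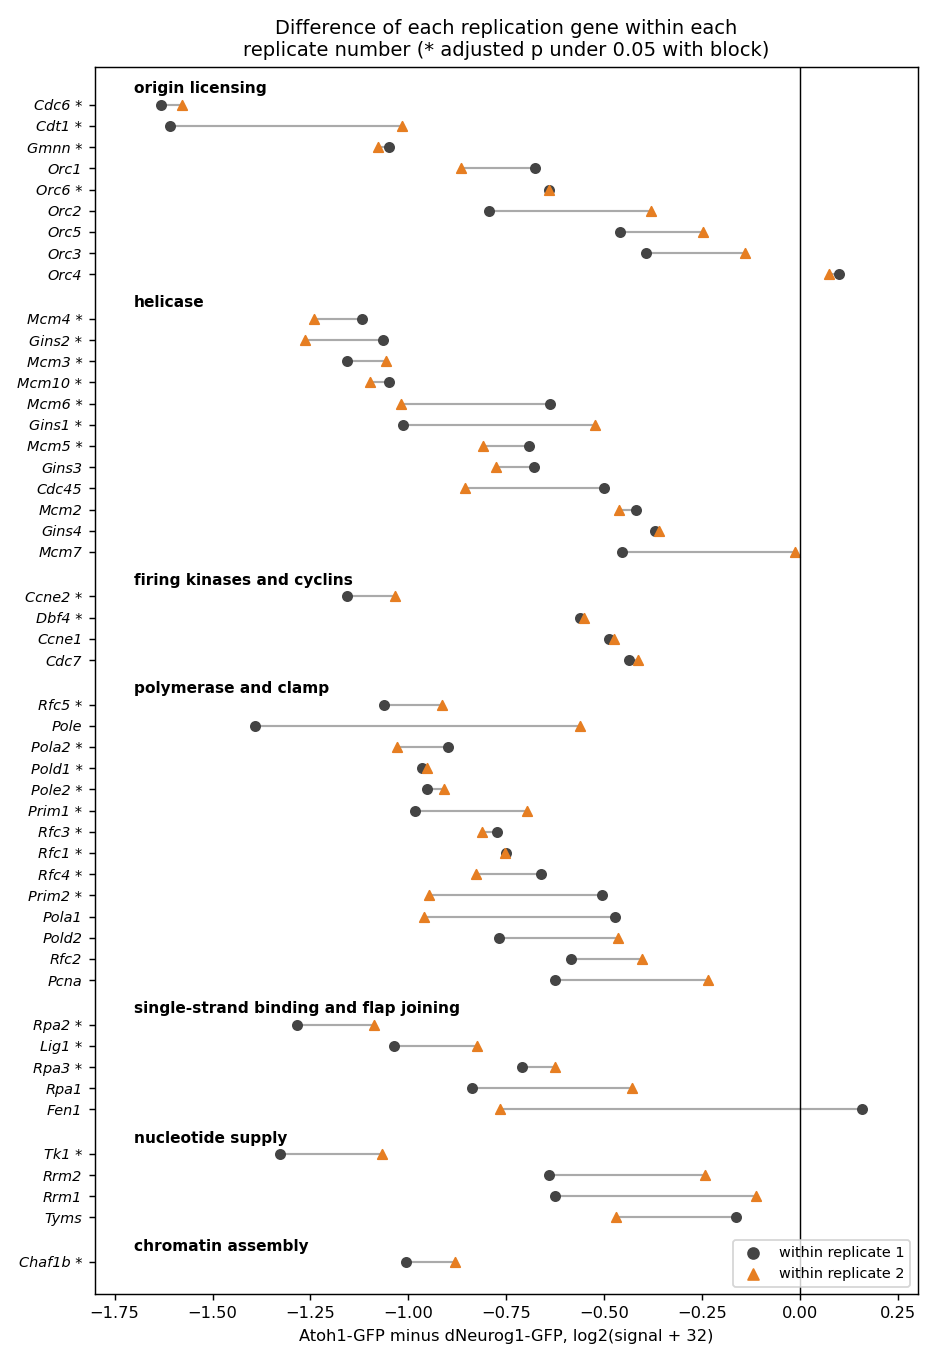
Log2 difference, Atoh1-GFP minus dNeurog1-GFP, of each replication gene within replicate 1 (dark circles) and within replicate 2 (orange triangles), sorted inside each step, with the vertical line at 0. All genes but Orc4 and Fen1 have both points left of the line, and the 27 starred genes had an adjusted p under 0.05 with the replicate block.

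Among the licensing genes, Cdc6, Cdt1 and Gmnn had larger differences than any subunit of the origin recognition complex. Cdc6, the ATPase that recruits the helicase with Cdt1, had 429 and 517 in Atoh1-GFP cells, against 1397 and 1608 in dNeurog1-GFP cells. It was 3.04-fold lower, the largest difference of all 49 genes (log2 difference -1.61, standard error 0.24 without the block and 0.14 with it, adjusted p = 0.0043). Cdt1, which delivers the Mcm ring, had 1692 and 3305 in Atoh1-GFP cells, against 5229 and 6723 in dNeurog1-GFP cells. The Atoh1-GFP arrays differed from each other here, so the log2 difference was -1.61 within replicate 1 and -1.02 within replicate 2 (adjusted p = 0.012), and with Atoh1-GFP replicate 1 left out it was -0.84. Geminin, Gmnn, the protein that blocks Cdt1 after licensing, had 1848 and 1751 in Atoh1-GFP cells, against 3862 and 3732 in dNeurog1-GFP cells. With a log2 difference of -1.06 (adjusted p = 0.0076), an inhibitor of licensing was lower along with the factors that license.

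The 6 subunits of the origin recognition complex did not move alike. Orc1, the subunit whose level is known to follow the cell cycle, had 261 and 167 in Atoh1-GFP cells, against 435 and 331 in dNeurog1-GFP cells. The arrays did not overlap, but its log2 difference of -0.77 missed the threshold (adjusted p = 0.083). A second Orc1 probe set gave -0.33, with overlap of the arrays. Orc6 had 1467 and 1469 in Atoh1-GFP cells, against 2303 and 2308 in dNeurog1-GFP cells, and passed (log2 difference -0.64, adjusted p = 0.032). Orc2, Orc5 and Orc3 had log2 differences of -0.59, -0.35 and -0.27 and did not pass, and the arrays overlapped for Orc5. Without Atoh1-GFP replicate 1 these differences were -0.28 for Orc2, 0.088 for Orc5 and -0.12 for Orc3. Orc4 was the exception among the 49 genes, with 1698 and 1753 in Atoh1-GFP cells, against 1582 and 1665 in dNeurog1-GFP cells (log2 difference 0.09, adjusted p = 0.71). Its other 3 probe sets above the filter had differences of 0.13, 0.02 and -0.06, so no direction is read for it. The licensing genes had a median log2 difference of -0.64 over 9 genes, and 4 of them passed, against 3.73% of all genes called lower.

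All 12 helicase genes had a negative difference within both replicate numbers (33.7% of all genes did), with a median of -0.76. Of them 7 passed, against 3.73% of all genes called lower. The Mcm2 to Mcm7 proteins form a single ring with 1 copy of each, yet their probe sets differed by unlike amounts. Mcm4 signals were 2419 and 2775 in Atoh1-GFP cells, against 5288 and 6600 in dNeurog1-GFP cells (log2 difference -1.18, adjusted p = 0.0062). Mcm3 had 2749 and 2764 in Atoh1-GFP cells, against 6168 and 5783 in dNeurog1-GFP cells (log2 difference -1.11, adjusted p = 0.0068). Mcm6 had 3201 and 3381 in Atoh1-GFP cells, against 5004 and 6878 in dNeurog1-GFP cells (-0.83, adjusted p = 0.025). For these 3 subunits both Atoh1-GFP arrays lay well below both dNeurog1-GFP arrays.

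Mcm5 had 5790 and 6066 in Atoh1-GFP cells, against 9375 and 10647 in dNeurog1-GFP cells (log2 difference -0.75, adjusted p = 0.023). Mcm2 had 3050 and 2720 in Atoh1-GFP cells, against 4087 and 3757 in dNeurog1-GFP cells, and missed the threshold (-0.44, adjusted p = 0.077). Mcm7 had 10758 and 11180 in Atoh1-GFP cells, against 14754 and 11274 in dNeurog1-GFP cells (-0.23, adjusted p = 0.42). The Mcm7 arrays barely separated, with a difference of -0.45 within replicate 1 and -0.01 within replicate 2. Other probe sets gave larger differences for some of these genes and smaller ones for others. For Mcm5 they gave -1.17 and -1.12, for Mcm2 -0.53, and for Mcm7 -0.76, -0.56 and -0.22, where the brightest had -0.23. The arrays overlapped for the Mcm7 probe set with -0.22. For Mcm4 the other probe set gave -0.79, for Mcm6 -0.82, and for Mcm3 the others gave -1.21, -0.87, -0.81 and -0.59, the last with overlap of the arrays. The order of the subunits therefore depends on the probe set that is read.

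The remaining helicase genes activate the ring. Gins2, a subunit of the GINS complex, had 889 and 549 in Atoh1-GFP cells, against 1896 and 1363 in dNeurog1-GFP cells (log2 difference -1.16, adjusted p = 0.010). Mcm10, which helps to open the double helix at firing, had 661 and 751 in Atoh1-GFP cells, against 1403 and 1644 in dNeurog1-GFP cells (-1.07, adjusted p = 0.011). Both groups of arrays stood apart for these genes. Gins1 also passed (-0.77, adjusted p = 0.040), at 1043 and 2093 in Atoh1-GFP cells, against 2137 and 3022 in dNeurog1-GFP cells. Its Atoh1-GFP replicate 2 array almost reached the lower dNeurog1-GFP array, and the difference was -0.28 without Atoh1-GFP replicate 1 and -1.26 without Atoh1-GFP replicate 2. Gins3 (-0.73), Cdc45 (-0.68) and Gins4 (-0.37) did not pass, and the arrays overlapped for Gins4.

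Of the 4 genes that fire origins, Ccne2 and Dbf4 passed. Ccne2, a cyclin E that drives entry into S phase, had 769 and 679 in Atoh1-GFP cells, against 1753 and 1425 in dNeurog1-GFP cells (log2 difference -1.09, adjusted p = 0.011). Dbf4, the activator of Cdc7, had 2793 and 2885 in Atoh1-GFP cells, against 4136 and 4240 in dNeurog1-GFP cells (-0.56, adjusted p = 0.041). Its partner kinase Cdc7 had a difference of -0.43 (adjusted p = 0.096), and the other cyclin E gene, Ccne1, had -0.48 (adjusted p = 0.094), both without overlap of the arrays. A second Ccne1 probe set read 616 and 464 in Atoh1-GFP cells, against 1077 and 1058 in dNeurog1-GFP cells, a difference of -0.96.

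By their brightest probe sets, the polymerase and clamp genes were an even group. All 14 were lower without overlap of the arrays, against 18.8% of all genes. Their differences ran from -0.99 to -0.43 with a median of -0.77, and 9 passed, against 3.73% of all genes called lower. The arrays overlapped for another probe set above the filter of Rfc1 (-0.74), Rfc2 (-0.44) and Prim2 (-0.31). Rfc5, a subunit of the complex that loads the clamp, had 1110 and 1248 in Atoh1-GFP cells, against 2354 and 2378 in dNeurog1-GFP cells (log2 difference -0.99, adjusted p = 0.012). Pold1, the catalytic subunit of lagging-strand polymerase delta, had 938 and 928 in Atoh1-GFP cells, against 1863 and 1825 in dNeurog1-GFP cells (-0.96, adjusted p = 0.013). Pole2, a subunit of leading-strand polymerase epsilon, had 827 and 906 in Atoh1-GFP cells, against 1631 and 1729 in dNeurog1-GFP cells (-0.93, adjusted p = 0.014). In these 3 genes the arrays of a group lay close together.

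Polymerase alpha and its primase lay down the primers. Pola2, its regulatory subunit, had 414 and 447 in Atoh1-GFP cells, against 799 and 945 in dNeurog1-GFP cells (log2 difference -0.96, adjusted p = 0.024). Prim1, the catalytic primase subunit, had 1829 and 2282 in Atoh1-GFP cells, against 3648 and 3720 in dNeurog1-GFP cells (-0.84, adjusted p = 0.020). Rfc3 (-0.79), Rfc1 (-0.75), Rfc4 (-0.74) and Prim2 (-0.73) also passed, with adjusted p from 0.023 to 0.046. Prim2 had -1.19 without Atoh1-GFP replicate 1 and -0.27 without Atoh1-GFP replicate 2, and Rfc4 had -0.45 without Atoh1-GFP replicate 2. Pole, the catalytic subunit of polymerase epsilon, had a difference as large as that of Rfc5 but uneven arrays, with 447 and 976 in Atoh1-GFP cells, against 1223 and 1455 in dNeurog1-GFP cells, and missed the threshold (-0.98, adjusted p = 0.054). Pola1 (-0.72), Pold2 (-0.62) and Rfc2 (-0.49) also missed it. Pcna, the sliding clamp, had 10367 and 9833 in Atoh1-GFP cells, against 16013 and 11584 in dNeurog1-GFP cells, the smallest difference of this group (-0.43, adjusted p = 0.15).

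Replication protein A covers single-stranded DNA at the fork. Its subunit gene Rpa2 had 842 and 1109 in Atoh1-GFP cells, against 2096 and 2391 in dNeurog1-GFP cells (log2 difference -1.19, adjusted p = 0.0077). Rpa3 passed with -0.67 (adjusted p = 0.027) and Rpa1 missed the threshold with -0.63 (adjusted p = 0.055). Lig1, the ligase that seals lagging-strand fragments, had 1635 and 1840 in Atoh1-GFP cells, against 3386 and 3283 in dNeurog1-GFP cells (-0.93, adjusted p = 0.013). Fen1, the nuclease that trims those fragments, had 2778 and 1484 in Atoh1-GFP cells, against 2487 and 2548 in dNeurog1-GFP cells, so its groups overlapped (-0.30, adjusted p = 0.47). Its other probe set read 893 and 846 in Atoh1-GFP cells, against 1725 and 1514 in dNeurog1-GFP cells, without overlap (log2 difference -0.87). Among the brightest probe sets, that of Fen1 was the 1 case in which the replicate numbers went opposite ways, with 0.16 within replicate 1 and -0.77 within replicate 2. Dimmer probe sets above the filter also did so for Orc1, Orc3, Orc4, Mcm7 and Prim2.

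Nucleotide supply was uneven. Tk1, the thymidine kinase of dividing cells, had 485 and 513 in Atoh1-GFP cells, against 1265 and 1111 in dNeurog1-GFP cells (log2 difference -1.20, adjusted p = 0.012). The ribonucleotide reductase subunit genes Rrm2 and Rrm1 and the thymidylate synthase gene Tyms had differences of -0.44, -0.37 and -0.32 and did not pass. Tyms was dim, at 159 and 122 in Atoh1-GFP cells, against 182 and 181 in dNeurog1-GFP cells. Another Tyms probe set above the filter gave -0.52. Other Rrm1 probe sets gave -0.54 and 0.32, both with overlap of the arrays. Rrm2 had 9238 and 12022 in Atoh1-GFP cells, against 14429 and 14222 in dNeurog1-GFP cells. Its other probe sets gave -0.72, with overlap of the arrays, and -0.58. Chaf1b, a subunit of the complex that deposits histones on new DNA, had 506 and 550 in Atoh1-GFP cells, against 1047 and 1039 in dNeurog1-GFP cells (-0.94, adjusted p = 0.022).

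Probe sets that the choice by brightness left out were mostly lower too, with fewer that kept the arrays apart. The 49 genes had 106 probe sets with a single symbol, of which 95 passed the filter on low signals. The 46 of those that were not the brightest of their gene had a negative difference in 41 cases, and 28 (60.9%) were lower in Atoh1-GFP cells without overlap of the arrays. Among the brightest probe sets 45 of 49 (91.8%) were. Over all genes, 44.4% of the other probe sets and 49.3% of the brightest had a negative difference, and 11.4% and 18.8% were lower without overlap. In 31 genes with several such probe sets, 27 had a negative difference in each of them, and the exceptions were Orc2, Orc3, Orc4 and Rrm1. That count was not made over all genes. The difference between the probe sets of a gene had a median range of 0.21 and reached 0.85 log2 units in Rrm1, whose dimmest probe set gave 0.32.

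**Figure D3:**
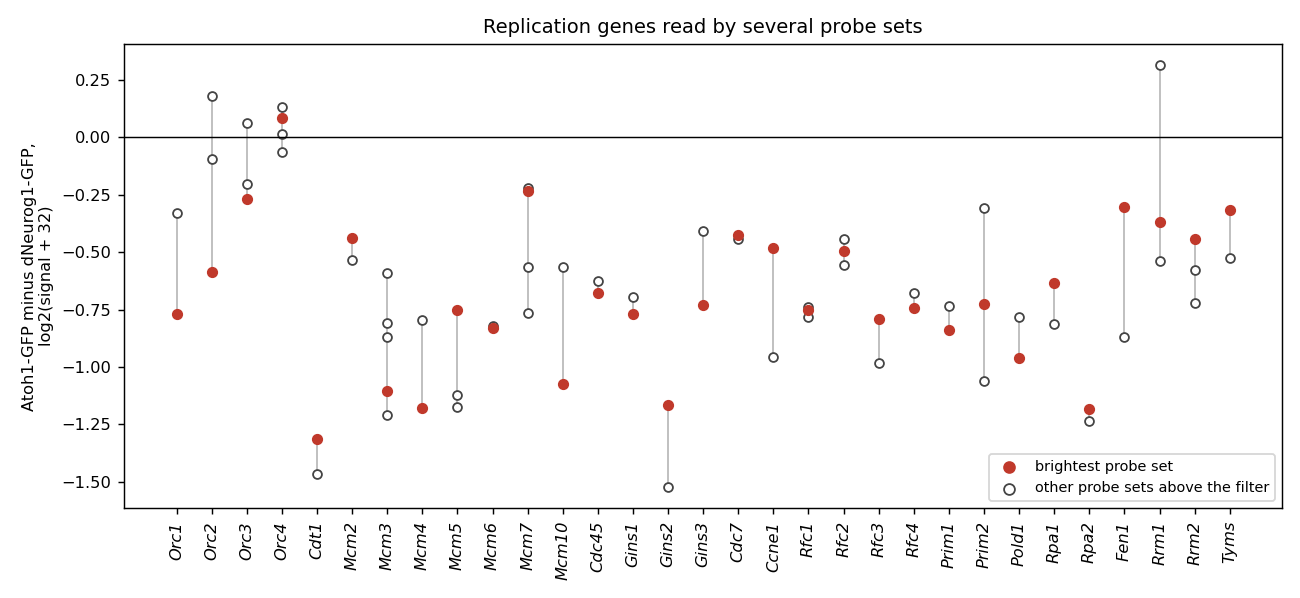
Log2 difference, Atoh1-GFP minus dNeurog1-GFP, of every probe set above the filter for the 31 replication genes read by several, with the brightest probe set in red and the others as open circles. Points above 0 belong to Orc2, Orc3, Orc4 and Rrm1, and for Fen1, Ccne1 and Mcm5 the other probe sets lie below the brightest.

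The difference was set beside the promoter matches as a description. The 14 genes with an E2F match had a median log2 difference of -0.81, from -1.61 in Cdc6 to -0.23 in Mcm7, and the 26 measured genes with promoters but no match had -0.62, from -1.20 in Tk1 to 0.09 in Orc4. The ranges shared the stretch from -1.20 to -0.23. Rpa2 and Tk1, without a match in these windows, differed as much as Mcm3, which had 2.

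Further genes, listed apart from the 50 by function and called other S-phase genes here, mostly moved the same way. Not all of them are confined to S phase, as with Tk2 and Rrm2b below. Of 71 measured, the block model called 33, each of them lower in the Atoh1-GFP arrays, against 3.73% of all genes called lower. Without the block 0 passed, and 38 had an unadjusted p under 0.05 in limma, all lower, against 5.09% of all genes lower. The 71 genes had a median log2 difference of -0.63, and 5 of them had a positive one. Among regulators of S phase 9 of 19 passed, including E2f7 and E2f8 (both -0.97), repressors that E2F factors themselves induce, Tfdp1 (-0.78), the DNA-binding partner of E2F proteins, Rbl1 (-0.77), a retinoblastoma family member, and Fbxo5 (-0.92), an inhibitor of the anaphase-promoting complex. E2f1 had 1985 and 2040 in Atoh1-GFP cells, against 2044 and 1114 in dNeurog1-GFP cells, and did not pass (0.41, adjusted p = 0.33). Its arrays overlapped.

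Among fork accessory and checkpoint genes 12 of 21 passed, with Chek1 (-1.22), the checkpoint kinase, Hells (-1.19), a chromatin remodeller, Atad5 (-1.11), which unloads the clamp, Tipin (-0.97), of the fork protection complex, and Recql4 (-0.96), a helicase of replication start. Of 11 further polymerase and Okazaki fragment genes, 3 passed: the nucleases Exo1 (-1.26) and Dna2 (-0.89), and Pold3 (-0.69) of polymerase delta. Of 12 further nucleotide genes 4 passed, namely Shmt1 (-1.02), Cad (-0.81), Dut (-0.79) and Dctpp1 (-0.53). The kinase Tk2 and the reductase subunit Rrm2b, known to supply nucleotides outside S phase, had differences of 0.32 and 0.28 and did not pass. Among histone and methylation genes 5 of 8 passed, with Hat1 (-1.06), a histone acetyltransferase, Slbp (-0.79), which binds histone messenger RNA, Asf1b (-0.73), a histone chaperone, Uhrf1 (-0.64), which guides maintenance methylation, and Cenpa (-0.57), the centromeric histone.

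**Figure D4:**
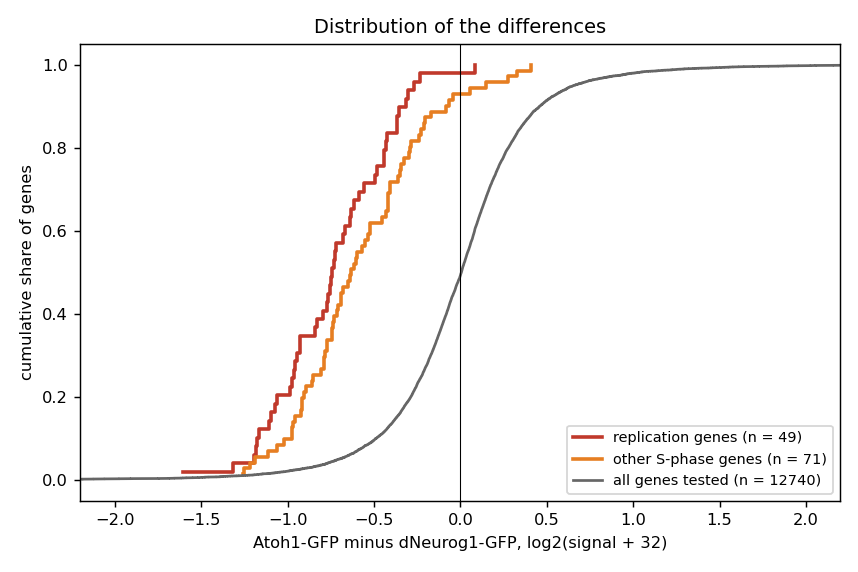
Cumulative share of genes against the log2 difference, Atoh1-GFP minus dNeurog1-GFP, for 49 replication genes, 71 other S-phase genes and all 12740 genes tested. The curves of both S-phase sets lie left of the curve of all genes, with medians of -0.74 and -0.63 against 0.01.

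Markers of the sorted lineages were read beside these values. Atoh1 and Neurog1 are the genes behind the reporters, so they are no independent check of the sorts. Atoh1 had 21412 and 19675 in Atoh1-GFP cells, against 1771 and 1861 in dNeurog1-GFP cells, and 5 of 5 dI1 markers were higher there with the block and 4 without it. Of 6 dI2 markers 4 passed with the block and 3 without it, all lower in Atoh1-GFP cells. Foxd3 (-1.19) and Foxp2 (0.13) did not pass in either model, and the Foxp2 arrays overlapped. With the block, 2.78% of all genes were called higher and 3.73% lower. Over all genes 28 passed without the block, 16 higher and 12 lower, and on the signals as deposited 13 did, 1 higher and 12 lower. Scaling to the same 75th percentile gave 7 higher and 11 lower.

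Most genes of cycling and uncommitted cells moved with the replication genes. Of 11 measured mitotic genes the block model called 8, each lower in the Atoh1-GFP arrays, with a median log2 difference of -0.71. Of all genes it called 3.73% lower and 2.78% higher. Of 14 neural progenitor markers it called 7, again lower (median -0.78), and their summed signals were 49133 and 43304 in Atoh1-GFP cells, against 72238 and 54914 in dNeurog1-GFP cells. The progenitor markers did not move evenly: Sox1 had a difference of -1.75 and Pax6 -1.61, whereas Sox2 had -0.11 and missed the threshold (adjusted p = 0.64). Vim had -0.05, and Nes was the 1 marker of the 14 with a positive difference (0.40). Neither passed. Of 12 newborn neuron markers 9 had a positive difference, and with the block 5 passed as higher, among them Tubb3 (1.01) and Dcx (0.99), and Nefm (-0.78) passed as lower. Their summed signals were 72855 and 75236 in Atoh1-GFP cells, against 47915 and 64470 in dNeurog1-GFP cells. Without the block 0 mitotic, 0 progenitor and 0 newborn neuron genes passed in limma. At an unadjusted p under 0.05, 8 mitotic and 6 progenitor genes were lower, and 7 newborn neuron genes higher and 2 lower. Of all 12740 genes, 649 were lower and 445 higher at that p. The part of progenitor and neuron numbers in the replication gene differences was not tested.

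Markers of other tissues were also read. The 5 measured blood genes, with embryonic globins the brightest, summed to 30559 and 31713 in Atoh1-GFP cells, against 7876 and 22906 in dNeurog1-GFP cells. Their median difference was 1.72 within replicate 1 and 0.63 within replicate 2, while that of the replication genes was -0.71 and -0.78. The 6 heart muscle genes summed to 1867 and 3731 in Atoh1-GFP cells, against 449 and 2115 in dNeurog1-GFP cells, the 6 endothelial genes to 1725 and 719 against 657 and 560, and the 7 mesenchyme genes to 6149 and 4275 against 2877 and 6549. For mesenchyme the replicate 1 median was 0.88 and the replicate 2 median -0.30, and for 2 measured neural crest genes 0.81 and -0.40, so both turned sign between replicate numbers. In dNeurog1-GFP cells some of these signals lay under the filter value of 63.5, as for Myh6 (35 and 20), Nppa (33 and 35) and Pecam1 (50 and 11). Presence in both sorts is therefore not shown for such genes. Of all 24 measured blood, endothelial, heart and mesenchyme genes 1 passed with the block, Myl7 (2.27), against 2.78% of all genes called higher. The part of these cells in the replication gene values was not tested.

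**Figure D5:**
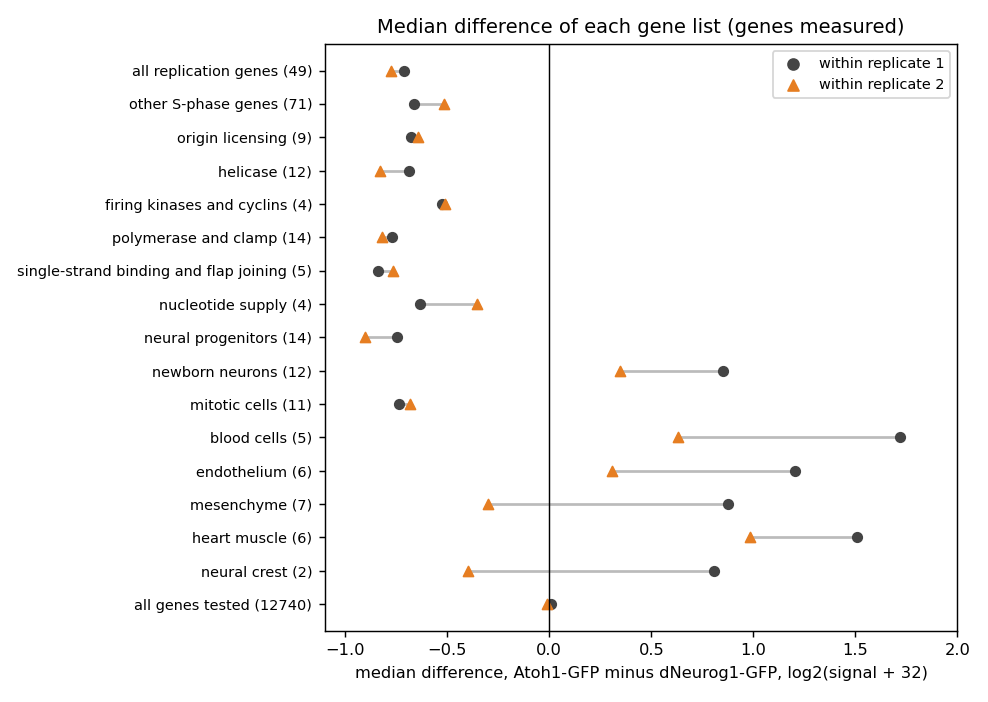
Median log2 difference, Atoh1-GFP minus dNeurog1-GFP, of each gene list within replicate 1 (dark circles) and within replicate 2 (orange triangles), with the number of genes measured in brackets. All replication genes, each plotted step of them, and the mitotic and progenitor lists lie between -0.91 and -0.36 within both replicate numbers, while blood, endothelial and mesenchyme medians shift between them.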

How the data were processed

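The authors deposited 1 linear MAS5 signal intensity per probe set and array. MAS5 is the only tool in the submitters' processing notes, which state no version. The authors' trimmed means (2% left out at each end) were 250 on replicate 1 and 500 on replicate 2 arrays, so each array was scaled to 500. Of 45037 probe sets without the 64 controls, 34945 had 1 symbol, 932 several and 9160 are unnamed here. Updating by gene identifier changed 0 symbols. Probe sets with a mean over the 4 arrays under the 40th percentile (63.5) were left out, and the brightest represented each of 12740 genes.

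Differences of log2(signal + 32), which understate dim genes, were tested with limma 3.58.1 in R 4.3.3 (lmFit, eBayes with trend), adjusted over all genes at 0.05. Residual degrees of freedom were 2 without the block and 1 with it, against median priors of 4.92 and 5.11. Deviations of same-numbered arrays from their group means correlated at 0.66, though 2 pairs cannot settle a pairing and the labels state none.

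In 20 simulations of this comparison (12740 genes, noise from the block model), a mean of 0 of 100 changes of 1 log2 unit and 16.6 of 100 changes of 2 were recovered without the block, with 0 false calls. With it 86.2 and 99.9 were, and 16.7% of calls were false. These simulations take the block model as given. The gap between the models therefore cannot decide whether the arrays were paired or which model is right. Members and lists were chosen with earlier results of these data known. Named in full were members that passed in either model (up to 6 a step), all of Mcm2 to Mcm7, and further examples chosen after their values were seen; of other S-phase lists, up to 5 that passed. Promoters were taken from RefSeq (GRCm38.p6). Scaling, pseudocount, filter, probe set choice, trend, block and left-out arrays were varied.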

Additional observations from a re-analysis of the deposited data

How the results depend on the processing

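The median difference of the replication genes stayed between -0.81 and -0.67 under all 20 alternatives. In the model with the replicate block, 829 genes, 27 replication genes and 33 other S-phase genes passed, against 28, 0 and 0 without it. With the block these 3 counts were 1169, 32 and 40 on the signals as deposited, 1716, 39 and 47 after quantile normalization, 900, 30 and 36 at pseudocount 1, 873, 29 and 35 at 4 times the pseudocount, 361, 20 and 19 with no filter, and 700, 28 and 26 with the mean of all probe sets. The 27 genes were among those called after each change of scaling or pseudocount, 20 of them were with no filter and 26 with the mean of all probe sets. Without the block, 13 genes passed on the signals as deposited, 18 at the same 75th percentile, 14 with no filter, 14 with the mean of all probe sets and 0 without the intensity trend (978 at an unadjusted p under 0.05 in limma). Leaving out an array gave 153 to 380 genes, 1 to 7 replication genes and 0 to 7 other S-phase genes. Each of these fits has 1 array in a group and takes its spread from the other group's 2, so these counts do not show stability.

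Without overlap of the arrays, 11 replication genes were lower on the signals as deposited, whose replicate numbers have different scales. At least 2-fold lower within both replicate numbers were 5 at 4 times the pseudocount. The share of all genes was not counted at either setting, so these counts have no background beside them. The firing kinase and cyclin median was -0.96 from probe sets without s, x or a in their names. The polymerase and clamp median was -0.72 at 4 times the pseudocount, also with the block, and -0.85 to -0.78 without an array. Chaf1b alone gave -0.84 at 4 times the pseudocount, with or without the block. The log2 difference of Orc4 turned to -0.062 with probe sets without s, x or a. Differences moved by over 1.5 times in 18 replication genes as an array was left out and in 10 under other settings, 20 in all. Of the 27 called with the block, 6 did: Cdt1, Gins1, Rfc4 and Prim2 without an array, and Mcm5 (-1.17) and Mcm10 (-0.57) with probe sets without s, x or a. Orc2 gave -0.17 with the mean of all probe sets. The difference of Orc5 ran from -0.80 to 0.088 as arrays were left out, positive without Atoh1-GFP replicate 1. That of Fen1 ran from -0.75 to 0.14, positive without Atoh1-GFP replicate 2. The 2 arrays of each group limit the precision, and the p-values with the block rest largely on the spread shared across genes.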
